A study of Homo sapiens and Mus musculus with 27 samples.

Results

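The 10 genes described here are the 7 inhibitors of cyclin-dependent kinases (CDKs) and the 3 pocket proteins of the retinoblastoma family. They were taken by symbol, ignoring letter case, from the deposited count tables: CDKN1A, CDKN1B, CDKN1C, CDKN2A, CDKN2B, CDKN2C, CDKN2D, RB1, RBL1 and RBL2. All 10 were found, among 59453 human and 55367 mouse gene names, and the rule that lists them uses no measured value. Bulk RNA-seq libraries, 27 in all, were made from 9 groups of 3 replicates in 3 experiments. The first experiment used LM2, a human line selected for lung metastasis from the triple-negative breast cancer line MDA-MB-231. The second used 4T1, a mouse mammary carcinoma line, and the third used LM2 cells that differed in their expression of LifeAct, a peptide that binds filamentous actin.

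In LM2 and in 4T1 the groups were a control (genotype WT, treatment control), overexpression (OE) of wild-type MKL1 (genotype WT, treatment WT MKL1 OE) and overexpression of caMKL1, a constitutively active form (treatment caMKL1 OE). In the caMKL1 samples the genotype label reads caMKL1, caMKL2 or caMKL3 by replicate, while title and treatment give caMKL1, and they were taken as 3 replicates of 1 group. The LifeAct groups were negative (genotype WT, treatment control), low expression and high expression, all of genotype WT. MKL1, whose current gene symbol is MRTFA, is a coactivator of serum response factor (SRF) that is held in the cytoplasm by monomeric actin. LM2 and 4T1 construct libraries were polyA selected, whereas LifeAct libraries were depleted of ribosomal RNA, so levels are compared within an experiment only. The labels give neither the promoter or vector of the constructs nor whether a group is 1 clone. They do not state that replicates were separate cultures, and the p-values therefore measure only the spread between these libraries.

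CDK inhibitors slow the cell cycle in G1. The CIP/KIP proteins p21 (CDKN1A), p27 (CDKN1B) and p57 (CDKN1C) bind cyclin-CDK complexes, above all those of CDK2, whereas the INK4 proteins p16 (CDKN2A), p15 (CDKN2B), p18 (CDKN2C) and p19 (CDKN2D) bind CDK4 and CDK6. The pocket proteins RB1, p107 (RBL1) and p130 (RBL2) are phosphorylated by these kinases. In their hypophosphorylated form they hold E2F transcription factors, and RBL1 or RBL2 joins E2F4 and the MuvB core in the DREAM complex, which represses cell-cycle genes in quiescent cells. RBL1 is itself a classical E2F target and is most abundant in cycling cells, whereas RBL2 prevails in quiescent ones. Several of these proteins are set by degradation or phosphorylation, which transcript counts do not show.

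Promoter sequence is shown for CDKN1A and RBL1, whose transcripts had the widest changes of an inhibitor and of a pocket protein in LM2. Both windows are from RefSeq (GRCh38.p14) and are written 5′ to 3′ on the strand of the gene, up to the base before the annotated start or before the first exonic base.
CDKN1A, chr6:36678464-36678709, + strand, capitals mark the GC box GGGCGG: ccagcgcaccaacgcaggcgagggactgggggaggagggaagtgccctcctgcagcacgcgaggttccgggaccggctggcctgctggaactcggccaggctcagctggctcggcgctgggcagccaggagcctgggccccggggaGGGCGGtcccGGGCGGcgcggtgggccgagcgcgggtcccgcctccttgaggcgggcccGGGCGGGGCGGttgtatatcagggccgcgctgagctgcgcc
RBL1, chr20:37095998-37096247, - strand, capitals mark E2F core words: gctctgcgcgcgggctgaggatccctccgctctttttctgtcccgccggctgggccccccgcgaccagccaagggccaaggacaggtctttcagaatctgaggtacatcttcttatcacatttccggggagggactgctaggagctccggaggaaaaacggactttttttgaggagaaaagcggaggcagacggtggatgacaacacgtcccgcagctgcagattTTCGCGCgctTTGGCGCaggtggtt

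In the CDKN1A window the GC box, the word read by SP1-like factors, occurred 4 times, all within 104 bases of the start, and the last pair share 1 base. In the RBL1 window the E2F core words (TTCCCGC and TTCGCGC as well as TTGCCGC and TTGGCGC, on either strand) occurred 2 times, at 25 to 19 and 15 to 9 bases before the start. Over 35116 promoter windows of 250 bases, 42.6% held a GC box and 10.9% an E2F core word. Of the 10 genes, 9 had an entry, with 13 start sites between them. The only start site of RB1, 48476450 on chromosome 13, lies well inside the annotated gene (48303744 to 48599436). The window before the first base of RB1 was not read, so its words are not known here. The start sites used for CDKN1A (36678714) and CDKN1B (12717368) also lie inside their annotated genes, which begin at 36676460 and 12715058. The windows before those first bases were not read either. Starts of CDKN2A, CDKN2C, CDKN2D and RBL2 lie inside their genes too. The other start with E2F core words was one of CDKN2C (start 50968706 on chromosome 1), with 2 of them and 5 GC boxes. Neither the TTTGAA word of the cell-cycle homology region (13.3% of windows) nor the CArG box bound by SRF (1.16% of windows) was found in any of the 13 windows. The CCAAT word, found in 32% of windows, was in 1 window each of CDKN2C, CDKN2D and RBL2 and in that of CDKN1B, which also held 1 GC box. These are matches of letters, not measured binding.

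The LM2 libraries summed to between 22147429 and 32147377 counts each, the 4T1 libraries to between 21896459 and 29370432 and the LifeAct libraries to between 15581289 and 23678322. MRTFA was higher in every MKL1 and caMKL1 library than in every control of its line, by 3.90 (MKL1) and 4.34 (caMKL1) log2 units in LM2 and 5.78 and 4.00 in 4T1. The SRF target ACTA2 was 11.59 log2 units higher with caMKL1 in LM2 and 14.49 in 4T1, but in LifeAct high cells it was only 0.10 units above negative cells, which did not pass the test. Mitochondrial transcripts took 6.18% to 13.6% of counts in LM2, with 7.76%, 13.4% and 13.6% in caMKL1 replicates 1, 2 and 3. They took 2.60% to 3.46% in 4T1 and 3.60% to 4.34% in the LifeAct libraries. The breast carcinoma label was checked against epithelial genes: the summed level of EPCAM, CDH1, KRT8, KRT18 and KRT19 was at least 350.6 CPM (counts scaled to a common library size) in every library, although CDH1 was below the filter in both LM2 experiments.

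Levels below are CPM, with library totals scaled by the trimmed mean of M-values (TMM). Differences are log2 ratios with standard errors (SE) from edgeR, tested by quasi-likelihood over all tested genes with Benjamini-Hochberg adjustment, and called at an adjusted p under 0.05. Of the 10 genes, 8 passed the filter on low counts in the LM2 and LifeAct tables and 7 in the 4T1 table. CDKN2A and CDKN2B passed nowhere and mouse Cdkn1c did not pass.

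**Figure D1:**
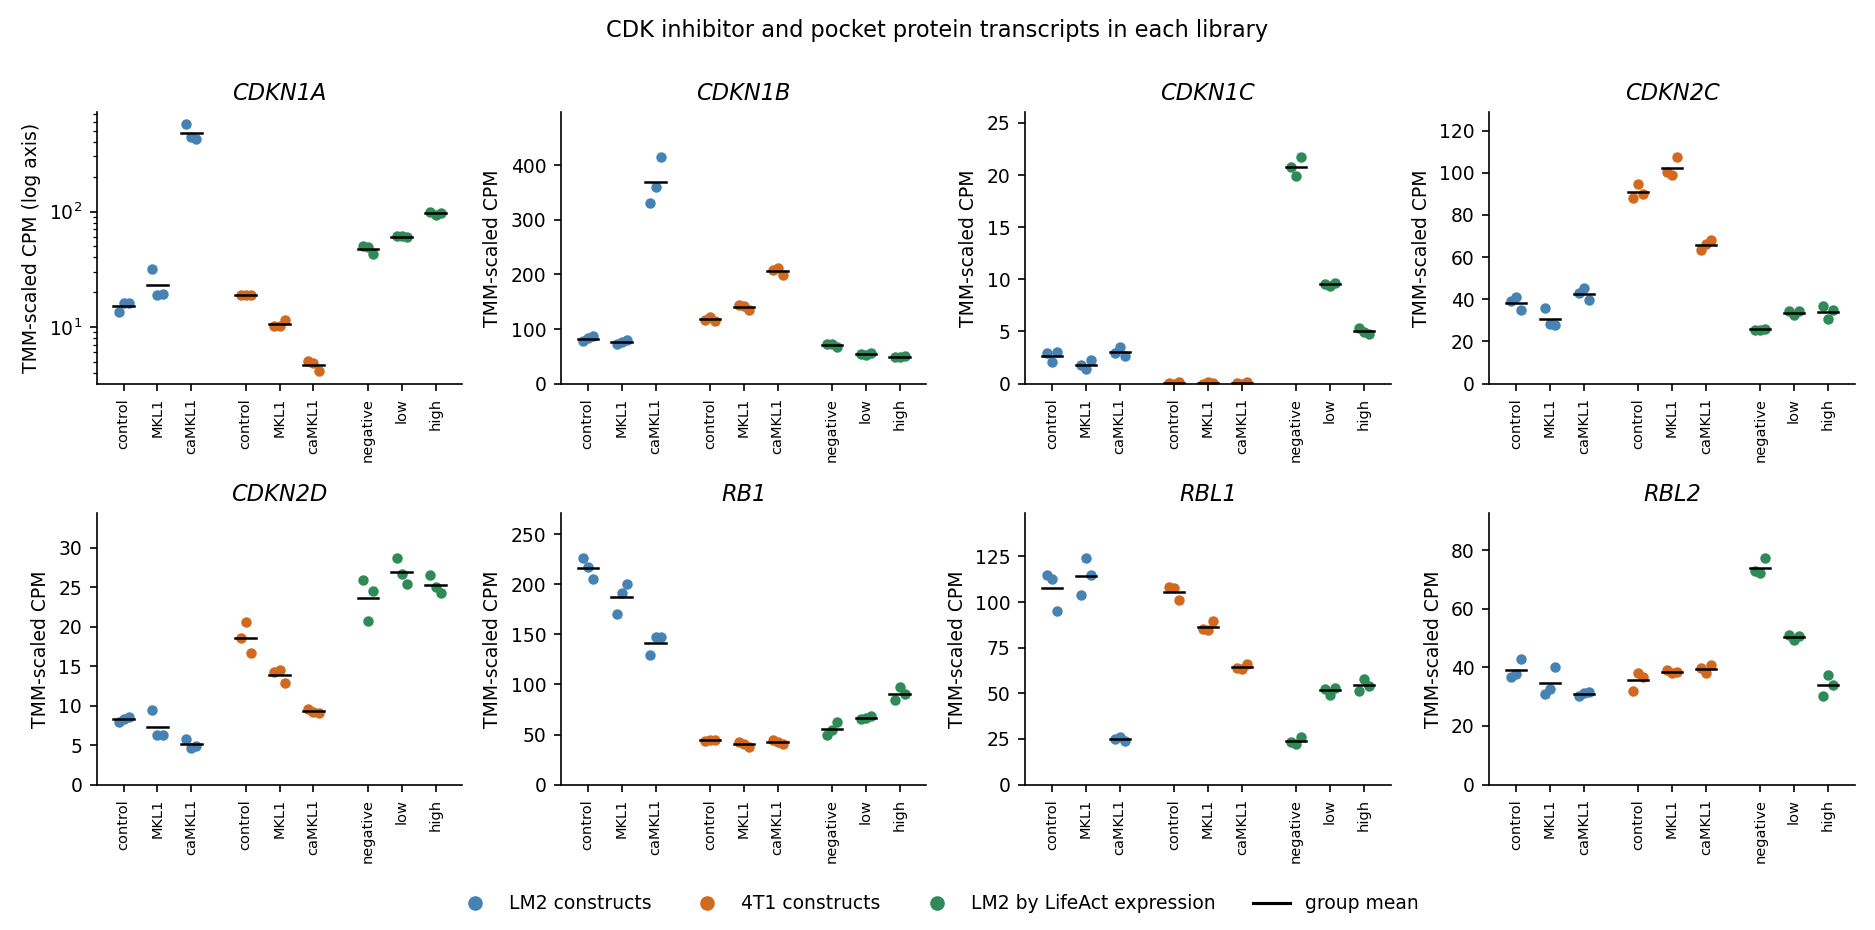
TMM-scaled CPM (vertical axes, logarithmic for CDKN1A) of 8 genes in each of 27 libraries (points) with group means (bars), by group. CDKN1A lies at 428 to 569 CPM in the LM2 caMKL1 libraries against 13.4 to 16.3 in LM2 controls, and at 4.12 to 5.03 in 4T1 caMKL1 against 18.8 to 18.9 in 4T1 controls.

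Among the CIP/KIP inhibitors, CDKN1A moved in opposite directions in the LM2 and 4T1 lines. CDKN1A (GRCh38 chr6:36676460-36687337, + strand) encodes p21, an inhibitor induced by stress and growth-arrest signals. In LM2 its level was 13.4, 16.2 and 16.3 CPM in control replicates 1, 2 and 3, 31.5, 18.8 and 19.3 CPM with MKL1, and 569, 439 and 428 CPM with caMKL1. Every caMKL1 library was above every other LM2 library, and MKL1 replicate 1 was well above the other MKL1 libraries. With caMKL1 the transcript rose 31.3-fold over control (log2 ratio 4.97 ± 0.19 SE, adjusted p = 4.2e-12, edgeR). With wild-type MKL1 the log2 ratio was 0.60 ± 0.18 (adjusted p = 0.0373, edgeR) although the ranges did not overlap. Without MKL1 replicate 1 that ratio was 0.32 (adjusted p = 0.161). The call was also lost without control replicate 1, 2 or 3 (adjusted p = 0.149, 0.0812 and 0.0999), with library totals in place of TMM (0.106), with limma voom (0.0781) and with only the 2 groups in the fit (0.0527).

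In 4T1, mouse Cdkn1a stood at 18.8, 18.8 and 18.9 CPM in controls, 10.1, 10.1 and 11.4 CPM with MKL1 and 5.03, 4.91 and 4.12 CPM with caMKL1. The 3 groups did not overlap and formed a descending series. The level was lower than in controls with MKL1 (log2 ratio -0.84 ± 0.08, adjusted p = 9.4e-09, edgeR) and 4.02-fold lower with caMKL1 (log2 ratio -2.01 ± 0.09, adjusted p = 1.0e-15). A joint model of both lines, in which genes were matched by symbol, put the difference in caMKL1 response, 4T1 minus LM2, at -7.10 ± 0.23 log2 units (adjusted p = 1.1e-15, edgeR). For wild-type MKL1 the same difference was -1.44 (adjusted p = 8.2e-05). Part of the human transcript (4.87% of its exon bases) and of the mouse transcript (7.68%) overlaps a noncoding gene on the other strand, and the counts were made without a strand option.

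Epithelial and mesenchymal markers and those of other cell types moved in the construct experiments too. In LM2 the epithelial sum went from 351 to 369 CPM in controls to 466 to 569.7 with MKL1 and 1607 to 1976 with caMKL1. The LM2 endothelial sum went from 6.25 to 8.60 CPM in controls to 2.07 to 2.85 with caMKL1, and the fibroblast sum from 4.02 to 4.90 to 1.39 to 2.00 CPM. In 4T1 the epithelial sum went from 2133 to 2192 CPM in controls to 3306 to 3376 with MKL1 and 4455 to 4652 with caMKL1. Of its 5 genes, 4 rose and 1 fell with either construct (log2 ratios -1.60 to 2.75 with caMKL1). The sum of the mesenchymal genes VIM and CD44 went from 1946 to 2003 CPM in LM2 controls to 6026 to 7187 with caMKL1, and both rose. In 4T1 that sum went from 1964 to 1997 CPM to 2235 to 2283 with caMKL1, where 1 rose and 1 fell. The 4T1 leukocyte sum (PTPRC, CD3E, CD79A and CD68) went from 6.31 to 6.59 CPM in controls to 19.4 to 22.4 with MKL1 and 55.6 to 63.7 with caMKL1. Of that list CD68 alone passed the filter, at a log2 ratio of 3.28 with caMKL1 (adjusted p = 1.3e-21, edgeR), and CD3E had no count. Their part in the construct results for CDKN1A and the other genes was not tested.

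CDKN1A also followed LifeAct. It measured 50.4, 49.2 and 42.8 CPM in LifeAct negative cells, 60.8, 61.0 and 59.9 CPM in low cells and 99.8, 93.9 and 97.3 CPM in high cells. No group overlapped another. The transcript rose by 0.35 ± 0.06 log2 units in low cells (adjusted p = 9.9e-06, edgeR) and by 1.03 ± 0.06 in high cells (2.05-fold, adjusted p = 9.8e-16).

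CDKN1B rose with caMKL1 in both lines but fell with LifeAct. This gene (chr12:12715058-12722369, + strand) encodes p27, an inhibitor that accumulates in quiescent cells. LM2 levels were 78.4, 83.0 and 86.5 CPM in controls, 72.1, 76.1 and 80.5 CPM with MKL1 and 332, 361 and 415 CPM with caMKL1. The caMKL1 libraries lay 4.47-fold above controls (log2 ratio 2.16 ± 0.10, adjusted p = 2.6e-11, edgeR), while controls and MKL1 libraries overlapped (-0.12, adjusted p = 0.483). Mouse Cdkn1b measured 116, 123 and 114 CPM in 4T1 controls, 144, 142 and 134 CPM with MKL1 and 209, 212 and 199.8 CPM with caMKL1, without overlap of any groups. It rose by 0.25 ± 0.04 log2 units with MKL1 (adjusted p = 9.6e-06, edgeR) and by 0.81 ± 0.04 with caMKL1 (adjusted p = 8.6e-16). The caMKL1 rise was smaller in 4T1 than in LM2 by 1.48 log2 units in the joint model (difference -1.48, adjusted p = 3.6e-10).

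In the LifeAct series CDKN1B went from 72.5, 71.7 and 66.4 CPM in negative cells to 54.2, 53.2 and 55.7 CPM in low cells and 48.6, 49.3 and 50.5 CPM in high cells. It fell by 0.37 log2 units in low cells (adjusted p = 1.3e-06, edgeR) and by 0.51 in high cells (adjusted p = 2.1e-09). The step from low to high was -0.14 (adjusted p = 0.0349), a call that was lost when any 1 of the 6 low or high libraries was left out (adjusted p 0.0537 to 0.134), with DESeq2 (0.089) and with no filter on low counts (0.0697).

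CDKN1C, the imprinted gene of p57 (chr11:2883213-2885775, - strand), was scarce in the construct experiments and fell along the LifeAct groups. Negative cells held 20.7, 19.9 and 21.7 CPM, low cells 9.52, 9.34 and 9.64 CPM and high cells 5.37, 4.90 and 4.75 CPM, in 3 separate bands. Relative to negative cells it fell by 1.13 ± 0.09 log2 units in low cells (adjusted p = 1.6e-11, edgeR) and by 2.04 ± 0.10 in high cells (adjusted p = 7.1e-17). In LM2 construct libraries it stayed between 1.43 and 3.48 CPM, with a log2 ratio of 0.17 for caMKL1 (adjusted p = 0.523) and -0.56 for MKL1 (adjusted p = 0.13). The caMKL1 libraries were 0.73 log2 units above the MKL1 libraries (adjusted p = 0.0112, edgeR), with adjusted p = 0.16 under library totals and 0.0515 without caMKL1 replicate 2. In 4T1, Cdkn1c had 16 counts over 9 libraries, at most 0.188 CPM in one library. Marker genes of other cell types moved beside the LifeAct change. The summed endothelial markers PECAM1, CDH5 and KDR were at 93.3 to 96.2 CPM in negative, 33.0 to 34.3 in low and 11.8 to 13.05 in high cells. Within that list PECAM1 fell (log2 ratio -3.62 in high cells) and KDR rose (1.04), while CDH5 was below the filter. Fibroblast markers went from 23.4 to 24.8 CPM in negative cells to 8.10 to 10.2 in high cells. Adipocyte markers went from 4.22 to 5.93 CPM to 0.523 to 0.742 CPM, and leukocyte markers from 2.20 to 3.73 CPM in negative cells to 1.19 to 1.43 in low and 0.653 to 1.93 in high cells. Their part in the result was not tested, and in bulk samples fewer cells of a type and less RNA per cell cannot be told apart.

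The INK4 inhibitors CDKN2A and CDKN2B, which lie side by side, were not detected. Neither had a single count in any of the 27 libraries. At 3 counts over an experiment this allows at most 0.0129 CPM in LM2, 0.0132 CPM in 4T1 and 0.0183 CPM in the LifeAct series, and at most 0.196 CPM in any one library, counting error only. In the human annotation CDKN2A lies at chr9:21967752-21995301 and CDKN2B at chr9:22002903-22009305 (GRCh38, - strand). MDA-MB-231 is known for a deletion of this locus, but DNA was not measured here. The flanking genes were also at or near 0 in both human tables: MTAP, which ends 30100 bases before CDKN2A, had 1 count over 9 LM2 libraries and 0 in the LifeAct libraries. KLHL9, IFNE, CDKN2A-DT, DMRTA1 and ELAVL2 had 0 counts in both. The antisense gene CDKN2B-AS1 had 15 counts over the LM2 libraries and 38 over the LifeAct libraries, at most 0.523 CPM. In 4T1 the neighbours differed from one another: Mtap, 93389 bases from Cdkn2a, had 359.5 to 887 CPM per library and Klhl9 had 72.9 to 99.3 CPM, whereas Ifne had 10 counts and Dmrta1 and Elavl2 1 count each over 9 libraries. Mtap was 1.18 log2 units lower with caMKL1 than in controls (log2 ratio -1.18).

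CDKN2C and CDKN2D, the INK4 genes outside that locus, changed by about 1 log2 unit at most. CDKN2C encodes p18 (chr1:50960745-50974634, + strand). It measured 39.1, 40.9 and 34.9 CPM in LM2 controls, 35.8, 28.4 and 27.6 CPM with MKL1 and 42.8, 45.5 and 39.4 CPM with caMKL1. These groups overlapped with the control, at 0.15 log2 units for caMKL1 (adjusted p = 0.255, edgeR) and -0.33 for MKL1 (adjusted p = 0.0803). The MKL1 difference passed without MKL1 replicate 1 (-0.45, adjusted p = 0.0109) and with the replicate block (-0.33, adjusted p = 0.0283). In 4T1 the levels were 87.9, 94.9 and 89.9 CPM, 100.5, 98.8 and 107 CPM, and 63.5, 66.0 and 68.1 CPM in control, MKL1 and caMKL1 libraries, 3 bands that did not overlap. Cdkn2c thus rose by 0.17 log2 units with MKL1 (adjusted p = 0.00247, edgeR; 0.0513 under library totals) and was lower with caMKL1 by a log2 ratio of -0.46 (adjusted p = 7.2e-10). Its caMKL1 response differed between the lines by -0.75 (adjusted p = 8.3e-06; -0.41 under library totals) and its MKL1 response by 0.50 (adjusted p = 0.00367). LifeAct low cells (34.3, 32.4 and 34.3 CPM) and high cells (36.7, 30.8 and 34.7 CPM) both lay above negative cells (25.5, 25.5 and 26.1 CPM). The log2 ratios were 0.39 for low cells (adjusted p = 3.5e-05, edgeR) and 0.41 for high cells (adjusted p = 8.4e-06).

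CDKN2D encodes p19 (chr19:10566460-10569059, - strand). With caMKL1 it fell in both lines, from 7.96, 8.35 and 8.56 CPM to 5.77, 4.61 and 4.87 CPM in LM2 and from 18.6, 20.6 and 16.7 CPM to 9.61, 9.18 and 9.10 CPM in 4T1. The log2 ratios were -0.70 ± 0.18 in LM2 (adjusted p = 0.00285, edgeR; -1.10 under library totals) and -1.01 in 4T1 (adjusted p = 1.6e-10), without overlap in either line. MKL1 libraries held 9.45, 6.24 and 6.28 CPM in LM2 (-0.18, adjusted p = 0.557) and 14.2, 14.5 and 12.9 CPM in 4T1 (-0.43, adjusted p = 0.00017). LifeAct groups overlapped at 20.7 to 28.7 CPM, with log2 ratios of 0.18 in low cells (adjusted p = 0.069) and 0.10 in high cells (adjusted p = 0.298).

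Of the pocket proteins, RBL1 had the widest range, falling with caMKL1 and rising with LifeAct. RBL1 (chr20:36996349-37095997, - strand) encodes p107. In LM2 it measured 115, 112 and 95.0 CPM in controls, 104, 124 and 115 CPM with MKL1 and 24.8, 26.2 and 24.0 CPM with caMKL1. Controls and MKL1 libraries overlapped (0.09, adjusted p = 0.616, edgeR), and caMKL1 libraries were 4.29-fold below controls (log2 ratio -2.10 ± 0.10, adjusted p = 6.0e-11). Mouse Rbl1 (GRCm38 chr2:157145893-157204534) measured 108, 107 and 101 CPM in controls, 85.2, 84.9 and 89.3 CPM with MKL1 and 63.6, 63.3 and 66.1 CPM with caMKL1. These bands were separate, with log2 ratios of -0.29 for MKL1 (adjusted p = 2.0e-06, edgeR) and -0.72 for caMKL1 (adjusted p = 5.2e-14). The caMKL1 fall was larger in LM2: 4T1 minus LM2 was 1.25 log2 units (adjusted p = 4.9e-09). With MKL1 the difference between lines was -0.38 (adjusted p = 0.0143).

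Along the LifeAct groups RBL1 went the other way, from 23.4, 22.1 and 25.9 CPM in negative cells to 52.5, 48.9 and 53.1 CPM in low and 51.5, 58.0 and 54.1 CPM in high cells. It rose by 1.12 ± 0.07 log2 units in low cells (adjusted p = 7.1e-14, edgeR) and by 1.19 in high cells (adjusted p = 3.6e-15). Low and high cells overlapped (0.08, adjusted p = 0.318). The level in negative cells and that in LM2 caMKL1 libraries, 25.0 ± 1.12 CPM (SD, n = 3), come from different RNA selections and are not compared.

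RBL2 went against RBL1 with LifeAct. RBL2 (chr16:53433977-53491648, + strand), the gene of p130, held 72.8, 72.1 and 77.2 CPM in negative, 51.2, 49.4 and 50.5 CPM in low and 30.4, 37.2 and 34.1 CPM in high cells. These 3 bands descended without overlap, by log2 ratios of -0.56 in low cells (adjusted p = 8.4e-09, edgeR) and -1.14 ± 0.06 in high cells (adjusted p = 1.4e-15). The endothelial, fibroblast and adipocyte sums given beside CDKN1C moved in the same order, and their part was not tested here either. In LM2, RBL2 measured 36.8, 37.6 and 42.8 CPM in controls, 31.0, 32.5 and 40.2 CPM with MKL1 and 30.3, 31.3 and 31.4 CPM with caMKL1. Only the caMKL1 difference passed (log2 ratio -0.33, adjusted p = 0.0158, edgeR), and it was -0.27 without control replicate 3 (adjusted p = 0.0769) and -0.74 under library totals (adjusted p = 9.4e-05). In 4T1 it was within 31.9 to 40.8 CPM in all groups. The log2 ratio for caMKL1 was 0.15 (adjusted p = 0.023), but -0.03 under library totals, and the call was lost without control replicate 1 (adjusted p = 0.199), without caMKL1 replicate 3 (0.0726) and with no filter on low counts (0.0813). Of the exon bases of RBL2, 16.4% in human and 21% in mouse are shared with genes on the other strand, AKTIP among them. This share was 14.9% for mouse Rb1, 30.7% for mouse Cdkn1c, 15.3% for human CDKN2A and 3.58% for human RBL1.

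RB1 itself (chr13:48303744-48599436, + strand), the retinoblastoma gene, fell moderately with caMKL1 in LM2 and rose with LifeAct. LM2 levels were 226, 218 and 205 CPM in controls, 170.5, 192 and 201 CPM with MKL1 and 129.6, 148 and 147 CPM with caMKL1. No ranges overlapped, yet the MKL1 difference did not pass (log2 ratio -0.20, adjusted p = 0.169, edgeR). Under library totals it did (-0.28, adjusted p = 0.0484). The caMKL1 difference passed (-0.61 ± 0.09, adjusted p = 2.7e-05, edgeR) and was -1.03 under library totals. In 4T1, Rb1 was within 37.6 to 45.0 CPM in all libraries, with -0.06 for caMKL1 (adjusted p = 0.291) and -0.15 for MKL1 (adjusted p = 0.0268). The MKL1 call was lost without control replicate 2 or 3 (adjusted p = 0.0646 and 0.0692) or MKL1 replicate 3 (-0.11, adjusted p = 0.131). Under library totals the caMKL1 ratio was -0.24 (adjusted p = 0.000243). The caMKL1 response differed between lines by 0.42 log2 units (adjusted p = 0.00199, edgeR; 0.77 under library totals). LifeAct cells went from 49.1, 54.3 and 62.2 CPM in negative to 65.8, 66.9 and 68.2 CPM in low and 84.1, 97.1 and 90.7 CPM in high cells. The rises were 0.28 log2 units in low cells (adjusted p = 0.000819, edgeR) and 0.71 in high cells (adjusted p = 9.1e-11).

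**Figure D2:**
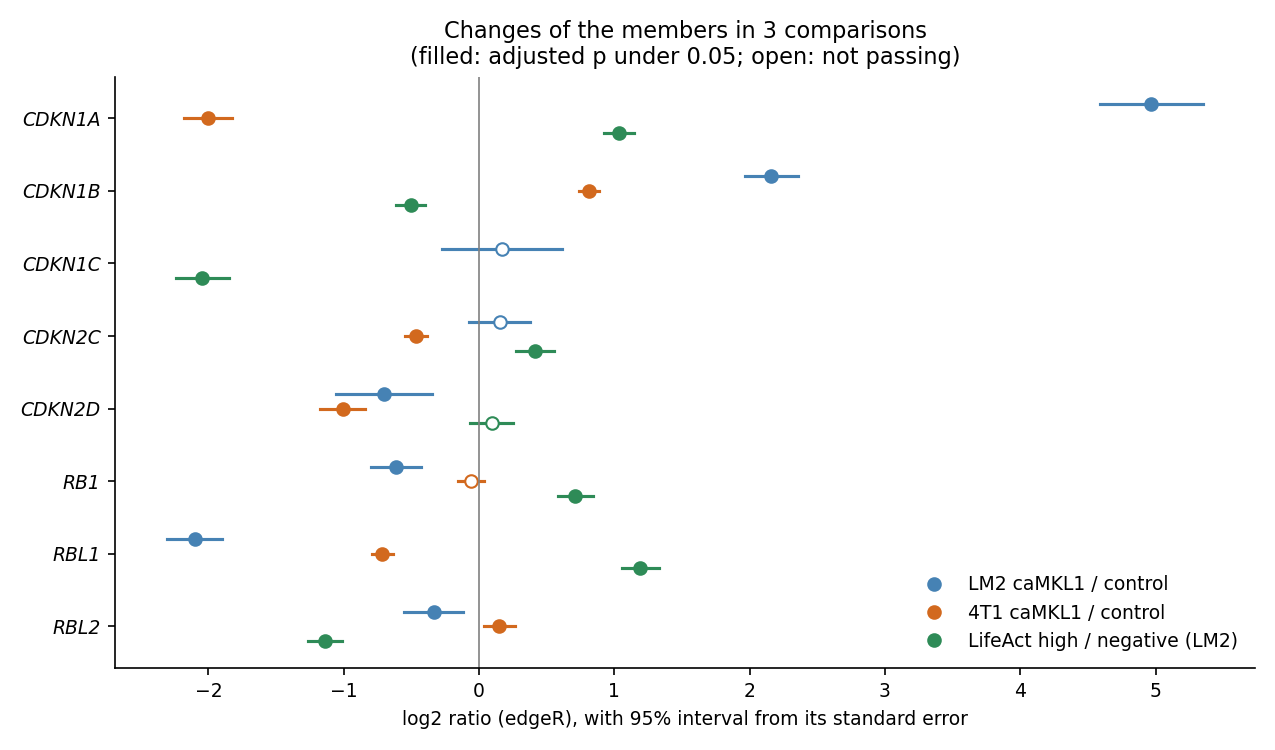
Log2 ratios from edgeR (horizontal axis) with 95% intervals for the tested genes in LM2 caMKL1 over control, 4T1 caMKL1 over control and LifeAct high over negative cells; filled points passed the test. CDKN1A lies at 4.97, -2.01 and 1.03, and RBL1 at -2.10, -0.72 and 1.19.

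Counted over the tested genes of the 10, 1 of 8 rose with MKL1 in LM2 and none fell, where 7.25% of all tested genes rose and 4.74% fell. The 1 is CDKN1A. Ranges did not overlap for 2 of the 8, CDKN1A and RB1, against 32.2% of all genes. With caMKL1 in LM2, 2 of 8 rose (31.9% of all genes) and 4 fell (33.0%), and 6 had ranges apart (71.3% of all genes). Between caMKL1 and MKL1 in LM2, 4 of 8 were higher (32.6% of all genes), 3 lower (31.9%) and 7 apart (65.9%). Over all genes, 6030 were higher and 6241 lower with caMKL1 in LM2 under TMM, and 4137 and 9271 under library totals.

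In 4T1 with MKL1, 6 of 7 passed the test in either direction (34.3% of all genes) and 7 had ranges apart (44.2%). With caMKL1, 2 rose (36.2% of all genes), 4 fell (35.8%) and 6 were apart (73.7%). Between the 4T1 construct groups 1 was higher (33.8% of all genes), 4 lower (32.8%) and 5 apart (70.1%). In LifeAct low cells 4 of 8 rose (26.0% of all genes), 3 fell (23.6%) and 7 were apart (56.3%). In high cells 4 rose (36.0%), 3 fell (35.2%) and 7 were apart (71.7%), and from low to high 2 rose (26.6%), 3 fell (23.7%) and 5 were apart (57.8%). In the joint model the MKL1 response differed between the lines, in either direction, for 4 of 7 (25.8% of 10364 genes), and the caMKL1 response was higher in 4T1 for 3 (35.7%) and lower for 4 (34.5%). With calls this common among all genes, and libraries shared between the comparisons of an experiment, these counts describe the family only.

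Sums over each family were taken in CPM per kilobase of exon. In LM2 the inhibitors summed to 56.6 ± 1.82 in controls, 53.2 ± 3.84 with MKL1 and 322 ± 15.9 with caMKL1 (SD, n = 3), and the pocket proteins to 56.5 ± 3.00, 52.6 ± 4.20 and 30.0 ± 1.73. In 4T1 the inhibitors summed to 76.9 ± 3.25, 80.6 ± 0.533 and 77.2 ± 1.09, so that the caMKL1 mean lay within the spread of the controls. The 4T1 pocket proteins went from 29.7 ± 0.613 to 26.2 ± 0.209 and 23.1 ± 0.323. LifeAct inhibitors were at 75.9 ± 2.83, 74.3 ± 1.25 and 81.8 ± 2.41 in negative, low and high cells, and pocket proteins at 21.7 ± 1.61, 25.3 ± 0.522 and 27.4 ± 1.98.

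**Figure D3:**
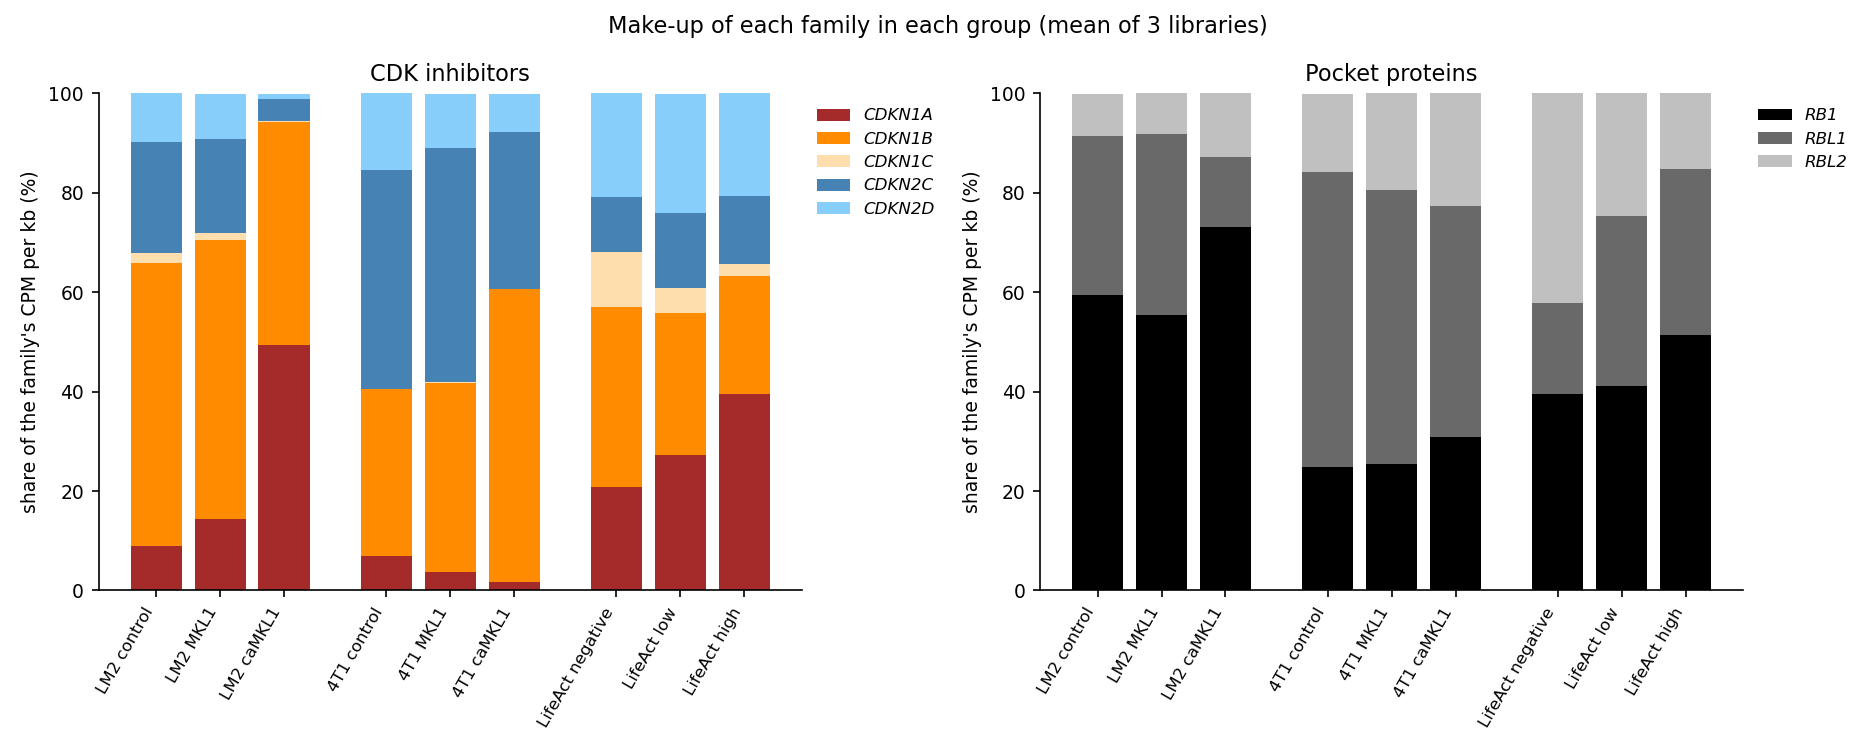
Share of each gene in its family's summed CPM per kilobase (vertical axis, %, mean of 3 libraries) in 9 groups. CDKN1A makes up 49.4% of the LM2 inhibitor sum with caMKL1 and 1.71% of the 4T1 sum with caMKL1.

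The order of the levels per kilobase differed between lines and groups. In LM2 controls RB1 (33.6 CPM per kilobase) and CDKN1B (32.2) led and overlapped in range, followed by RBL1 (18.04) and CDKN2C (12.7). CDKN2D (5.51), CDKN1A (5.10) and RBL2 (4.82) came next with overlapping ranges, and CDKN1C (1.08) was last. With caMKL1, CDKN1A (159.7) and CDKN1B (144) led, again overlapping, ahead of RB1 (22.0), CDKN2C (14.1), RBL1 (4.20), RBL2 (3.82) and CDKN2D (3.38), the last pair overlapping. In 4T1 controls the order was Cdkn2c (33.8), Cdkn1b (25.9), Rbl1 (17.6), Cdkn2d (11.8), Rb1 (7.40), Cdkn1a (5.30) and Rbl2 (4.70), with no overlap of neighbours. With caMKL1 it was Cdkn1b (45.5), Cdkn2c (24.5), Rbl1 (10.7), Rb1 (7.10), Cdkn2d (5.91), Rbl2 (5.23) and Cdkn1a (1.32). LifeAct negative cells had CDKN1B first (27.4), with CDKN1A and CDKN2D both at 15.8 and RBL1 last (3.99). In high cells CDKN1A led (32.4) and CDKN1C was last (2.02).

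Shares within a family therefore shifted. CDKN1A went from 8.99% of the LM2 inhibitor sum in controls to 14.4% with MKL1 and 49.4% with caMKL1, from 6.90% to 3.68% and 1.71% in 4T1, and from 20.9% to 27.2% and 39.6% along the LifeAct groups. CDKN1B went from 33.6% to 58.9% of the 4T1 sum with caMKL1, while Cdkn2c went from 44.0% to 31.8%. Among pocket proteins RB1 took 59.5% in LM2 controls and 73.2% with caMKL1, and RBL1 31.9% and 14.02%. Along the LifeAct groups RBL2 went from 42.1% to 24.6% and 15.2% of the pocket sum, and RBL1 from 18.4% to 34.2% and 33.4%.

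Genes of the pathway around these proteins were counted from lists of known function. The shares of all tested genes are given first for comparison. With caMKL1, 31.9% rose and 33.0% fell in LM2, and 36.2% and 35.8% in 4T1. In LifeAct high cells 36.0% rose and 35.2% fell, and in low cells 26.0% and 23.6%. With MKL1, 7.25% rose and 4.74% fell in LM2, and 34.3% passed in either direction in 4T1. The 16 G1/S genes bound by E2F, which encode replication and nucleotide synthesis proteins, moved like RBL1. In LM2 with caMKL1, 15 fell and none rose (median log2 ratio -1.93, against -0.05 over all tested genes). RRM1, a ribonucleotide reductase subunit, was at -1.95 ± 0.09 (adjusted p = 3.9e-11, edgeR) and RRM2 at -2.64. The exception TK1, thymidine kinase, was at -0.07 (adjusted p = 0.8). With MKL1 in LM2, 2 rose and 14 did not pass. In 4T1 all 16 fell with MKL1 (median -0.26) and all 16 with caMKL1 (median -0.80). In LifeAct low and high cells all 16 rose, with medians of 1.27 and 1.54 against -0.01 and -0.03 over all genes. The counts of 16 were the same under DESeq2 size factors and under library totals.

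The 12 G2/M genes of the DREAM complex showed a line difference. All 12 fell with caMKL1 in LM2 (median -2.49), among them BUB1, a mitotic checkpoint kinase, at -2.60 ± 0.09 (adjusted p = 7.7e-13, edgeR), TOP2A at -2.73 and CDK1 at -2.48. In 4T1 with caMKL1, 10 fell (median -0.43), and BUB1 (-0.02, adjusted p = 0.64) and AURKA (0.05, adjusted p = 0.33) did not pass. All 12 caMKL1 responses were higher in 4T1 than in LM2 in the joint model (median 1.69). Over all genes of that model 35.7% were higher and the median was 0.03. Other lists leaned the same way there. Of 16 G1/S genes, 14 were higher and 2 lower (median 0.87). All 7 genes of the MuvB core with MYBL2 and FOXM1 were higher (median 0.72). The 9 G1 cyclins and CDKs were split, with 4 higher and 3 lower. Species, line and construct level differ together and cannot be told apart. All 12 G2/M genes rose in LifeAct low (median 0.83) and high cells (median 0.93).

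The G1 cyclins and CDKs, the targets of the inhibitors, numbered 9. With caMKL1 in LM2, 1 rose and 6 fell (median -0.42): CCNA2, cyclin A2, was at -2.39 ± 0.09 (adjusted p = 3.0e-12, edgeR), CCND1, cyclin D1, at -2.20 and CCNE2 at -1.85. The 1 that rose was CCND2, cyclin D2, at 1.33. In 4T1 with caMKL1, 6 fell and 3 rose, with CCND1 at -2.72 ± 0.03 (adjusted p = 9.7e-28, edgeR), and under library totals 6 fell and 1 rose. In LifeAct high cells all 9 rose (median 1.00), CCNE2 at 1.85 among them. CCND1 fell with caMKL1 in both lines and was 1.10 log2 units higher in LifeAct high cells.

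Of 10 E2F and DP factors, a list that includes the partners pocket proteins hold, 7 fell and 2 rose with caMKL1 in LM2 (median -0.96). E2F7, a repressor E2F, was at -1.39 ± 0.09 (adjusted p = 1.1e-09, edgeR), TFDP1 at -1.38 and E2F2 at -3.22. In 4T1 with caMKL1, 7 fell and 2 rose, with a median of -0.27. In LifeAct high cells 7 rose and 3 fell (median 0.72), E2F2 at 2.36 and E2F7 at -0.57. The MuvB core with MYBL2 and FOXM1, 7 genes, fell in 6 of 7 cases in LM2 with caMKL1 (median -0.96), with FOXM1 at -2.25, MYBL2 at -2.26 and RBBP4 at -1.18. In 4T1 with caMKL1, 5 of these rose and 2 fell (median 0.23), but under library totals 1 rose and 2 fell. MYBL2 was at 0.16 there (adjusted p = 0.0025, edgeR) and FOXM1 at -0.55. All 7 rose in LifeAct high cells (median 1.10).

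**Figure D4:**
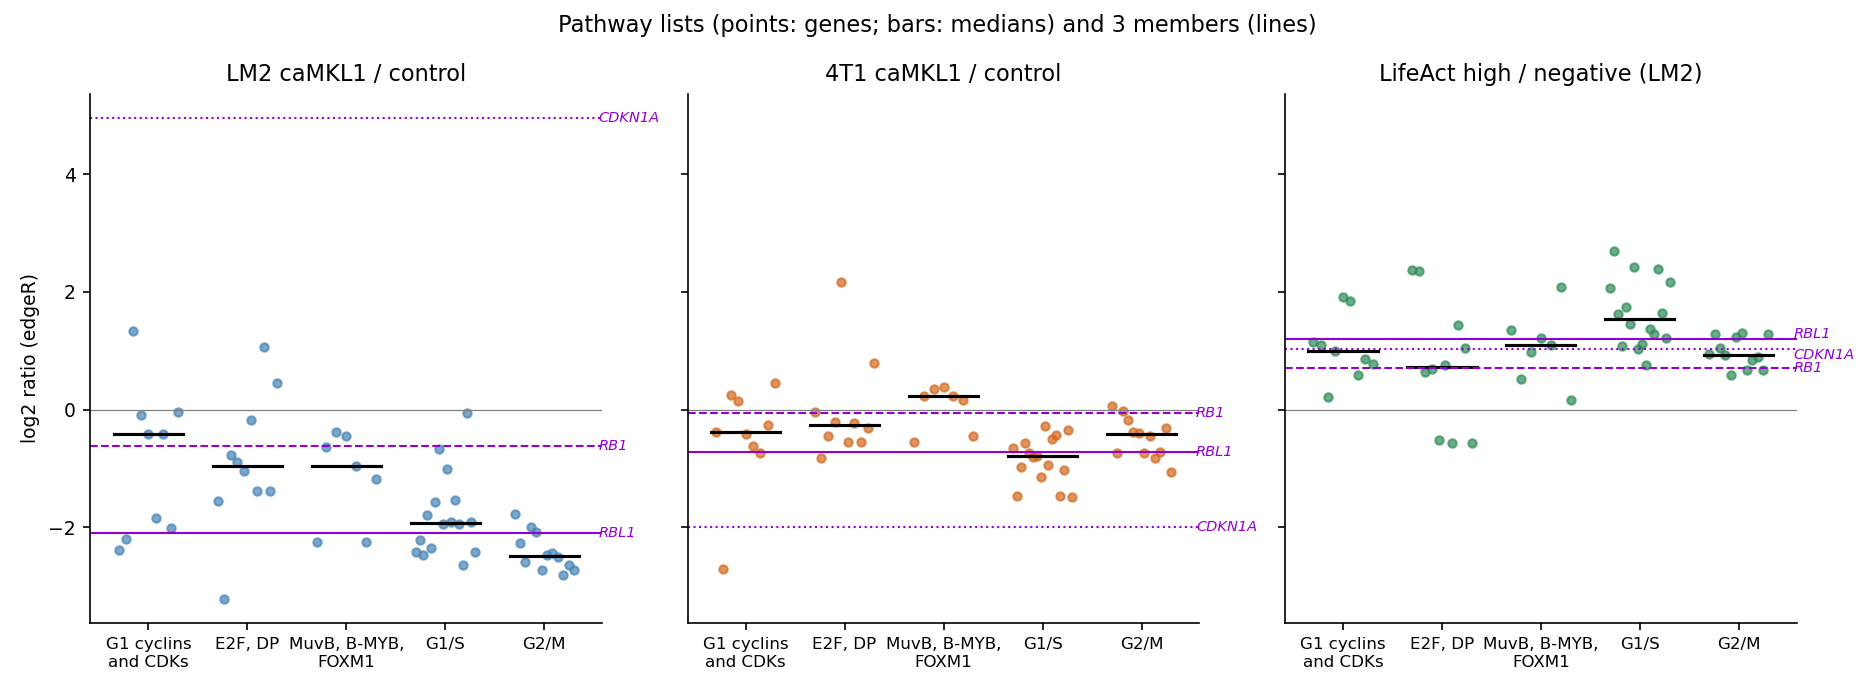
Log2 ratios from edgeR (vertical axis) of each gene (points) in 5 pathway lists with list medians (bars), for LM2 caMKL1, 4T1 caMKL1 and LifeAct high cells. Lines mark CDKN1A, RB1 and RBL1. The G1/S medians are -1.93, -0.80 and 1.54, near the RBL1 lines at -2.10, -0.72 and 1.19.

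Of 9 tested factors that act on CDKN1A, 2 rose and 6 fell with caMKL1 in LM2 (median -0.66), and of 8 tested in 4T1, 2 rose and 5 fell (median -0.34). SMAD3, which carries TGF-beta signals, was at a log2 ratio of -1.84 with caMKL1 in LM2, and EGR1, an immediate early factor, rose. EGR1 averaged 24.8 ± 5.92 CPM in controls, 15.8 ± 3.92 with MKL1 and 276.8 ± 10.97 with caMKL1 (SD, n = 3) in LM2. In 4T1 Egr1 averaged 169 ± 30.3, 121 ± 12.1 and 12.97 ± 0.0555 CPM, and in the LifeAct groups EGR1 averaged 74.0 ± 1.88, 54.3 ± 1.13 and 196 ± 5.23 CPM. For caMKL1 and for LifeAct high cells EGR1 had the sign of CDKN1A, and with MKL1 in 4T1 the means of both were below control. For MKL1 in LM2 and for LifeAct low cells it had the opposite sign, with log2 ratios of -0.65 (adjusted p = 0.022, edgeR) and -0.45 (adjusted p = 9.3e-09). The caMKL1 response of EGR1 differed between the lines by -7.31 log2 units (adjusted p = 1.1e-15, edgeR). The other factors were not matched to CDKN1A in this way, and a part of EGR1 in its changes was not tested.

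Genes that degrade CDK inhibitors changed in both directions with caMKL1, where 31.9% of all tested LM2 genes rose and 33.0% fell. Of 8 in LM2 with caMKL1, 3 rose and 4 fell (median -0.15): DTL, which targets p21, was at -2.69 ± 0.12 (adjusted p = 1.5e-11, edgeR), CKS1B, a cofactor for p27 degradation, at -1.37 and the scaffold CUL1 at 1.96. In 4T1, 4 of 7 rose and 3 fell, DTL at -0.80 and CKS1B at 0.27, whereas under library totals 2 rose and 4 fell (median -0.10 against 0.08). In LifeAct high cells 7 of 8 rose (median 0.27), DTL at 2.54. Of 7 Polycomb-type repressors of the INK4 locus, 5 fell and none rose with caMKL1 in LM2 (median -0.57), EED at -1.02, BMI1 at -0.75 and EZH2 at -0.56. In 4T1, 5 fell as well (median -0.33), and in LifeAct high cells 4 rose and 1 fell (median 0.25).

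Profiles over all 27 libraries, as log2 CPM less the mean of each experiment's controls, were compared between each of the 7 genes tested in both species and 10264 genes. The highest Pearson correlation for CDKN1A was with TXNRD1 (r = 0.983), followed by NT5C3B (0.981) and HADHB (0.979). CDKN1B was closest to ATXN1 (0.985) and MEF2C (0.984), RB1 to CEP295 (0.975) and RBL2 to SOX4 (0.973). RBL1 was closest to BLM (0.996), CDCA2 (0.996) and MELK (0.995), genes of DNA repair and cell division. CDKN2D was closest to ABCC10 (0.928) and CDKN2C to PARD6B (0.880). Among the genes themselves, CDKN1B and RBL1 had r = -0.950 and RB1 and RBL1 r = 0.881. The libraries share groups and a common scaling, and the LM2 caMKL1 group carries much of the range, so these values describe the profiles and no test is attached.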

How the data were processed

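The authors deposited counts per gene name for 27 bulk RNA-seq libraries, 9 in each of 3 tables. Per the file headers, featureCounts v2.0.1 counted reads over exons per gene name, from STAR alignments (STAR version not given in the sources used here), with Ensembl 103 (GRCh38) for human and 102 (GRCm38) for mouse and no strand option. The deposited exon Length column, another unit, gave levels per kilobase. The submitters' processing notes also name DESeq2, whose output was not used. The number of columns without a matching sample was 0.

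Each table was filtered with filterByExpr in edgeR 4.0.16 (minimum count 10), scaled by TMM and fitted over its 3 groups with the quasi-likelihood test in R 4.3.3. Adjusted p-values (Benjamini-Hochberg, 0.05) cover 18893, 16297 and 21869 tested genes in LM2, 4T1 and LifeAct. The prior count for log2 ratios was 0.125. A joint fit of 18 libraries tested 10364 of the 16749 names matched between lines. LM2 libraries were the most variable (biological coefficient of variation 0.118, against 0.0345 for 4T1 and 0.0439 for LifeAct). Same-group libraries differed beyond sampling noise (chi-square per gene 1.39 to 44.5), so none was counted as a copy of another. This measure cannot tell separate cultures from repeated preparations of 1 culture.

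The members, lists and tests were chosen with earlier results of these data known. The 10 members are named throughout. From each pathway list the 3 genes with the smallest adjusted p in LM2 caMKL1 against control are named, except for items not reported here, and others (TK1, CCND2, AURKA) were named after their values were seen. Alternatives were limma 3.58.1 voom, DESeq2 1.42.0, its size factors, library totals, no filter, a replicate block, only the 2 groups compared and each replicate left out. Scaling alternatives for the pathway lists were added after the data were seen. The procedure was tested on simulated data. Intervals of log2 ratios come from edgeR's standard errors and include the spread between libraries, whereas limits on counts of 0 cover counting error only.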

Additional observations from a re-analysis of the deposited data

Results flagged for a closer look

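Between the lines, 11 responses differed by a test of the difference itself (joint edgeR model, 4T1 minus LM2, log2 units). For MKL1 over control these were CDKN1A (-1.44, adjusted p = 8.2e-05), CDKN1B (0.36, adjusted p = 0.0213), CDKN2C (0.50, adjusted p = 0.00367) and RBL1 (-0.38, adjusted p = 0.0143). For caMKL1 over control they were CDKN1A (-7.10, adjusted p = 1.1e-15), CDKN1B (-1.48, adjusted p = 3.6e-10), CDKN2C (-0.75, adjusted p = 8.3e-06) and CDKN2D (-0.44, adjusted p = 0.0489). The pocket proteins RB1 (0.42, adjusted p = 0.00199), RBL1 (1.25, adjusted p = 4.9e-09) and RBL2 (0.36, adjusted p = 0.0232) differed too. Several of these calls rest on the setting. That of CDKN2D was lost with limma voom (adjusted p = 0.0583), library totals (-0.10, adjusted p = 0.697), no filter on low counts (0.0927), and without LM2 control 1 or 3, LM2 caMKL1 1, 4T1 control 1 or 2 or any one 4T1 MKL1 or caMKL1 library (0.0547 to 0.127). That of RBL2 was lost without LM2 control 3, LM2 caMKL1 1 or 2, 4T1 control 1 or 4T1 caMKL1 3 (adjusted p 0.0503 to 0.0822), and its value was 0.697 under library totals. That of CDKN1B for MKL1 was lost without LM2 control 2 or 3, LM2 MKL1 1, 4T1 control 3 or 4T1 MKL1 1 (adjusted p 0.0507 to 0.0592). Species, line and construct level differ together here and cannot be told apart, and of all genes tested 35.7% had a higher and 34.5% a lower caMKL1 response in 4T1.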

How the results depend on the processing

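Of 1464 recomputed values of single genes, 1386 kept their direction and their side of the threshold, 54 lost and 15 gained a call, and 9 changed sign. Under library totals the sign changed for CDKN2C (-0.26) and CDKN1C (-0.24) in LM2 caMKL1 against control, RBL2 in 4T1 caMKL1 against control (-0.032) and against MKL1 (-0.079), RB1 in 4T1 caMKL1 against MKL1 (-0.028) and CDKN2C in LifeAct high against low (-0.055). With single replicates left out, that last ratio ranged from -0.036 (without high replicate 1) to 0.088, and was also -0.0020 without low replicate 2. The RB1 difference in MKL1 response ranged from -0.039 (without LM2 MKL1 replicate 1) to 0.11. Library totals moved the median of all genes to -0.46 in LM2 caMKL1 against control (4137 higher, 9271 lower), -0.38 against MKL1 (4425 and 8635), -0.21 in 4T1 caMKL1 against control (4528 and 7580), -0.13 against MKL1 (4534 and 6690) and -0.11 in LifeAct high against low (4655 and 6437). The split was 918 and 1241 for LM2 MKL1, 2324 and 3868 for 4T1 MKL1, and 5132 and 2384 for the difference in caMKL1 response (median 0.37). For LM2 MKL1 against control the members called, 1 as reported, were 0 with limma voom and with only the 2 groups, 2 with the replicate block, 3 without replicate 1 of both construct groups, and 0 to 1 with single replicates left out (0 without any one control). The gene called was not always the same. Without MKL1 replicate 1, CDKN1A lost its call and CDKN2C gained one (-0.45, adjusted p = 0.0109). Under library totals, CDKN1A lost its call and RB1 gained one (-0.28, adjusted p = 0.0484). The genes called for LM2 MKL1 against control, 2265, ranged from 1106 (without control replicate 3) to 2688, with 1266 and 1243 without control 1 and 2. Replicate numbers were not taken as pairing the libraries, since the labels name no shared source and not every same-number pair correlated above 0.1: the residual correlation of same-number LM2 libraries ran from 0.00304 to 0.297, of 4T1 libraries from -0.0366 to 0.216 and of LifeAct libraries from -0.0330 to 0.00202, and 7, 5 and 0 of 9 libraries correlated best with their own number. In LM2 all same-number correlations were positive, a hint of pairing from the data and not from the design. With the replicate block 3258 genes were called for LM2 MKL1 against control, a move of under 1.5 times. In the other comparisons no count of genes or members called moved by over 1.5 times. At 3 counts, levels under 0.0853 to 0.196 CPM in a single library could not be seen.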
